A study of Mus musculus with 2 samples.

Results

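The genes described here are 42 antioxidant enzymes and targets of the transcription factor NRF2, out of 55487 genes in the deposited table. They were chosen by name and function, with earlier results of these data known. They cover NRF2 and its inhibitor, and enzymes of the glutathione, thioredoxin, peroxidase, dismutase, ferritin and metallothionein systems. All 42 symbols matched an Ensembl identifier in the GENCODE M21 annotation of the mouse assembly GRCm38. RNA sequencing compared apoptotic osteoblasts, bone-forming cells killed with ultraviolet light, from young mice and from old mice. Each age had a single library of unstated strain, sex, genotype and exact age, and the number of mice or cultures pooled into it is not given. In both groups, adherent cells from cut bone were passaged 3 times, kept in osteogenic medium for 3 days and exposed to ultraviolet light for 0.5 h, after which over 90% were positive for Trypan Blue, which living cells keep out. Under treatment the label of the young library says day 0 and that of the old day 5, so day and age cannot be told apart.

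NRF2 is a transcription factor that is made constantly and destroyed quickly while KEAP1, its sensor and adaptor for a ubiquitin ligase, holds it. Oxidants and reactive chemicals modify cysteines of KEAP1, after which NRF2 accumulates, pairs with a small MAF protein and binds antioxidant response elements near genes for detoxification, glutathione and iron handling. Other antioxidant enzymes, such as the dismutases and peroxiredoxins, are made in most cells at high levels without such a signal. In bone, oxidants are known to restrain osteoblasts and to promote their death.

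In the old library, the mRNAs of the glutathione transferase Gsta4, the extracellular superoxide dismutase Sod3 and the quinone reductase Nqo1 were more than 2-fold higher than in the young. The metallothionein Mt2, the glutathione transferase Gsto1, the ferritin heavy chain Fth1, the haem oxygenase Hmox1 and the sulfiredoxin Srxn1 were higher by smaller factors, between 1.32 and 1.71. The enzymes that make and recycle glutathione, the peroxiredoxins other than Prdx6, the thioredoxins and catalase were close to even. The unit is FPKM, fragments scaled for gene length and library size, and 40 genes averaged 1 FPKM or more over both libraries. Of these, 3 were at least 2-fold higher on the scale of log2(FPKM + 1) and 0 at least 2-fold lower. Among all 12561 genes measured in this way, 1.97% were 2-fold higher and 0.868% 2-fold lower. With 1 library per group there is no replicate check, so differences are described and not tested.

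Intervals given below are exact 95% counting intervals of the ratio of FPKM, old over young, from read numbers worked out from the FPKM values. They cover counting error only, and they compare 2 libraries rather than 2 ages. Each read is treated as independent, which PCR copies are not, so the intervals may be too narrow. The young library held 16333396 reads and the old 18114336. Of the 42 genes, 37 had at least 500 reads in each library. For these genes counting error reckoned in this way is small, and the spread between cultures was not measured. A second, finer rule took a ratio of at least 1.3 with its interval above 1, or of at most 1/1.3 with its interval below 1. It was met upward by 8 of the 40 genes (all measured genes, 9.77%) and downward by 0 (all measured genes, 13.0%). The median log2 ratio of the 40 genes was 0.08 against -0.07 for all measured genes. Of the 40, 27 lay above 0 against 40.4% of all measured genes. The genes were listed with earlier results of these data known, so these comparisons describe and do not test. The middle 90% of all measured genes ran from -0.56 to 0.62. Levels are of bulk RNA, in which fewer cells of a type and less RNA per cell cannot be told apart.

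**Figure D1:**
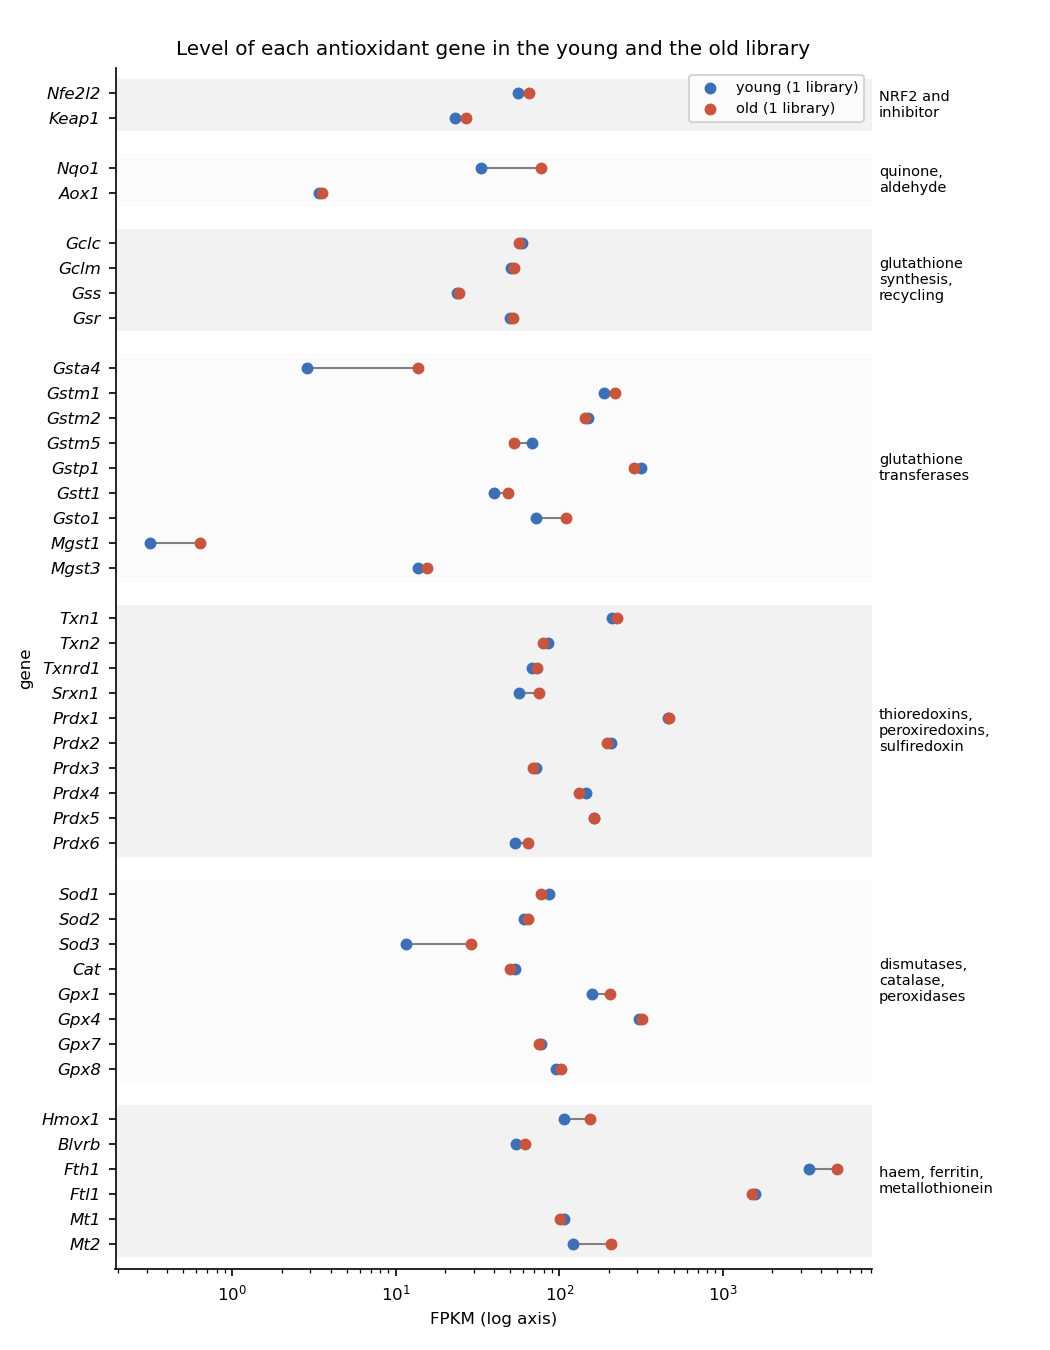
FPKM of 41 antioxidant genes (log axis) in the young (blue) and the old (red) library, grouped by role; each point is 1 library and Gpx3, with 0 reads in both, is left out. Most pairs of points nearly coincide, while Gsta4, Sod3, Nqo1 and Mgst1 (4 and 9 reads) are the most widely separated, followed by Mt2, Gsto1 and Fth1, all higher in the old library.

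The tissue label was checked against marker genes. Collagen genes of bone were abundant, with Col1a1 at 8568 FPKM (young) and 6788 FPKM (old), whereas Alpl, alkaline phosphatase, was at 2.78 and 3.28 FPKM and Bglap, osteocalcin, had 3 and 6 reads. Of the 9 osteoblast markers 8 passed the filter, with a median log2 ratio of -0.34 and a summed level of 20064 FPKM (young) and 17054 FPKM (old). Collagen and the early factor Runx2 (92.1 and 72.7 FPKM) were thus present, while Alpl and Bglap were scarce and Ibsp was low at 6.31 and 5.90 FPKM. Spp1, osteopontin, was the single marker at least 2-fold higher, with 224 FPKM (young) and 1732 FPKM (old). Sp7, the osteoblast transcription factor osterix, went the other way, at 55.5 FPKM (young) and 28.9 FPKM (old), with a ratio of 0.521 (0.482 to 0.562). The part of these marker differences in the antioxidant values was not tested. Of the 6 red cell markers, whose cells are rich in Prdx2, Blvrb and catalase, 4 had 0 reads in both libraries and none had more than 2 reads. Summed over the list, red cell markers reached 0.205 FPKM (young) and 0.153 FPKM (old). Leukocyte and macrophage markers summed to 25.9 and 22.9 FPKM, nearly all of it Lyz2 and Cd68, with Ptprc at 1 and 0 reads and Adgre1 and Itgam at 0. Endothelial and adipocyte markers had at most 13 reads per gene and library.

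NRF2 and its inhibitor were both slightly higher in the old library. Nfe2l2, which encodes NRF2 (ENSMUSG00000015839, chromosome 2, 75675513 to 75704641, minus strand, GRCm38), was at 55.5 FPKM (young) and 65.0 FPKM (old), with a ratio of 1.17 (1.10 to 1.25). Keap1 (chromosome 9, 21229730 to 21239361, minus strand) was at 22.9 and 26.7 FPKM (ratio 1.16, interval 1.07 to 1.27). Both ratios lay inside the middle 90% of all genes, with log2 ratios of 0.22 and 0.21. Since NRF2 is controlled mainly through breakdown of its protein, its mRNA does not measure its activity, and protein was not measured.

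The promoter windows of 6 genes are shown so that the response elements can be read beside the values. Of the 42 genes, 36 were found in the RefSeq promoter table (GRCm38.p6), and the 250 bases before each annotated start were searched on both strands. The core of the antioxidant response element, TGACNNNGC, was present in the windows of 8 of these 36 genes (8 of their 45 windows, 17.8%) and in 10.2% of all 32851 windows. These genes were Nfe2l2, Gclm, Gstm5, Mgst1, Txnrd1, Prdx1, Sod1 and Mt2. In Prdx1 and Mt2 the match was TGACTCAGC, which also holds the AP-1 site TGANTCA, so these letters belong to both motifs. The AP-1 site was found for 6 of the 36 genes (6 of their 45 windows, 13.3%) and in 6.75% of all windows. Of the 3 genes at least 2-fold higher, the Nqo1 window held no match. Gsta4, Sod3, Gclc, Gsr, Prdx6 and Hmox1 were not in the table. A match is a description of letters, and elements farther from the start were not searched. Capitals mark the antioxidant response element core as it reads on the gene's strand, and in Gclm and Prdx1 the core runs on the opposite strand.
Nfe2l2, chr2:75704664-75704913, minus strand: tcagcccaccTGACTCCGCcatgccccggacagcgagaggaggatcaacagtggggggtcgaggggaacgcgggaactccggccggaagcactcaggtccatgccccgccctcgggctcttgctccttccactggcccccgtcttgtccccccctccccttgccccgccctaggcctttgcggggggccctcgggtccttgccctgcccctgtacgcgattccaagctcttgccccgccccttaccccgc
Gclm, chr3:122245307-122245556, plus strand: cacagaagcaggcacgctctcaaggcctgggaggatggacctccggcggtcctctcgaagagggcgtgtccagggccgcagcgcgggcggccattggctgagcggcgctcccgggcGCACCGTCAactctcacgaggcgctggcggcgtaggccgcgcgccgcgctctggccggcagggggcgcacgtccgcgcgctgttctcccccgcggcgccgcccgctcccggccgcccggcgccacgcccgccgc
Prdx1, chr4:116685349-116685598, plus strand: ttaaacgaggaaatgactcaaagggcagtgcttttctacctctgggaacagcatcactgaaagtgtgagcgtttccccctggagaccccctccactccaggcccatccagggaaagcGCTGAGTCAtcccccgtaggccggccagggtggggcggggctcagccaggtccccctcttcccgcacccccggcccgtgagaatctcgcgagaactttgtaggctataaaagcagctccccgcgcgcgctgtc
Nqo1, chr8:107403206-107403455, minus strand: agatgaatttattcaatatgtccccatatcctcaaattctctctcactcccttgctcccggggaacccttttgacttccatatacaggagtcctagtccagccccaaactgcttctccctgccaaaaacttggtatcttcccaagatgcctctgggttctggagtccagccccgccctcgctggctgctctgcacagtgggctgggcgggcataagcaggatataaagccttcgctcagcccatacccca

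Genes whose windows held the antioxidant core did not all lie on the same side of even. Nfe2l2, Txnrd1 and Mt2 were higher in the old library, Sod1 and Gstm5 were lower, and the intervals of Gclm and Prdx1 included a ratio of 1. Mgst1, the remaining gene, had too few reads to say.

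Nqo1 and Aox1 oxidise or reduce quinones and aldehydes. Nqo1, a classical NRF2 target that reduces quinones without forming radicals (ENSMUSG00000003849, chromosome 8, 107388225 to 107403206, minus strand), was at 33.4 FPKM (young) and 77.2 FPKM (old). On 846 and 2173 reads this was a ratio of 2.32 (2.14 to 2.51), and Nqo1 ranked 177 of 12561 genes by log2 ratio. Its whole interval lay beyond 2-fold. Aox1, an aldehyde oxidase, was low and even at 3.39 and 3.51 FPKM (ratio 1.04, interval 0.886 to 1.21).

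The mRNAs for glutathione synthesis and recycling were nearly level. Glutamate-cysteine ligase, the rate-limiting enzyme of glutathione synthesis, has the catalytic subunit Gclc, at 58.9 FPKM (young) and 57.0 FPKM (old), and the modifier subunit Gclm, at 50.9 and 52.4 FPKM. Glutathione synthetase, Gss, was at 23.8 and 24.3 FPKM, and the reductase that restores oxidised glutathione, Gsr, was at 50.2 and 52.2 FPKM. The ratios of these 4 genes ran from 0.967 to 1.04, and every one of their counting intervals included 1. Gclc and Gclm kept nearly the same proportion, with Gclc at 53.6% of their summed level when young and 52.1% when old. Gclc, Gclm and Nqo1 are all textbook NRF2 targets, and Nqo1 alone of these differed by more than counting error.

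Glutathione transferases, which couple glutathione to reactive compounds, went both ways. Gsta4 (ENSMUSG00000032348, chromosome 9, 78182774 to 78209349, plus strand), an alpha-class enzyme known for clearing the lipid peroxidation product 4-hydroxynonenal, was at 2.85 FPKM (young) and 13.7 FPKM (old). Its 40 and 213 reads gave a ratio of 4.80 (3.41 to 6.91) and rank 40 of 12561 genes by log2 ratio. The log2 ratio of Gsta4 was 1.93 with the pseudocount of 1 and 1.25 with a pseudocount of 5, since its level is low. Gsto1, an omega-class enzyme with thiol transferase activity, was at 71.6 and 109 FPKM (ratio 1.53, interval 1.41 to 1.66).

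The mu-class genes lie in a cluster on chromosome 3 and did not move together. Gstm1 was at 188 FPKM (young) and 219.6 FPKM (old), with a ratio of 1.17 (1.11 to 1.23). Gstm2 was at 149.8 and 144 FPKM, with an interval of 0.902 to 1.02 that included 1. Gstm5 was at 67.8 and 52.6 FPKM (ratio 0.776, interval 0.704 to 0.854), the lowest of the 40 genes. Within the cluster, Gstm1 thus stood at 2.77 times Gstm5 in the young library and 4.17 times in the old. Part of the Gstm1 value is uncertain, because 22% of its words (stretches of 50 bases) also occur in other genes, chiefly Gstm2. Part of the Gstm5 value is uncertain too. Of its exon bases, 13.9% are overlapped by 4933431E20Rik on the other strand, listed at 16.1 FPKM (young) and 11.4 FPKM (old).

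Gstp1, the pi-class enzyme and the most abundant transferase measured here, was slightly lower at 314 and 286 FPKM (ratio 0.91, interval 0.867 to 0.955). Its sequence is shared with a pseudogene and Gstp2 over 44.9% of its words, and these copies together reached 42.1 and 40.7 FPKM. Gstt1, of the theta class, was at 40.0 and 48.7 FPKM (ratio 1.22, interval 1.09 to 1.36). Among the membrane-bound enzymes, Mgst3 was at 13.6 and 15.4 FPKM with an interval that included 1. Mgst1, with 4 and 9 reads, stayed below the filter, and its interval of 0.566 to 9.02 shows that no difference was detectable at this depth.

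**Figure D2:**
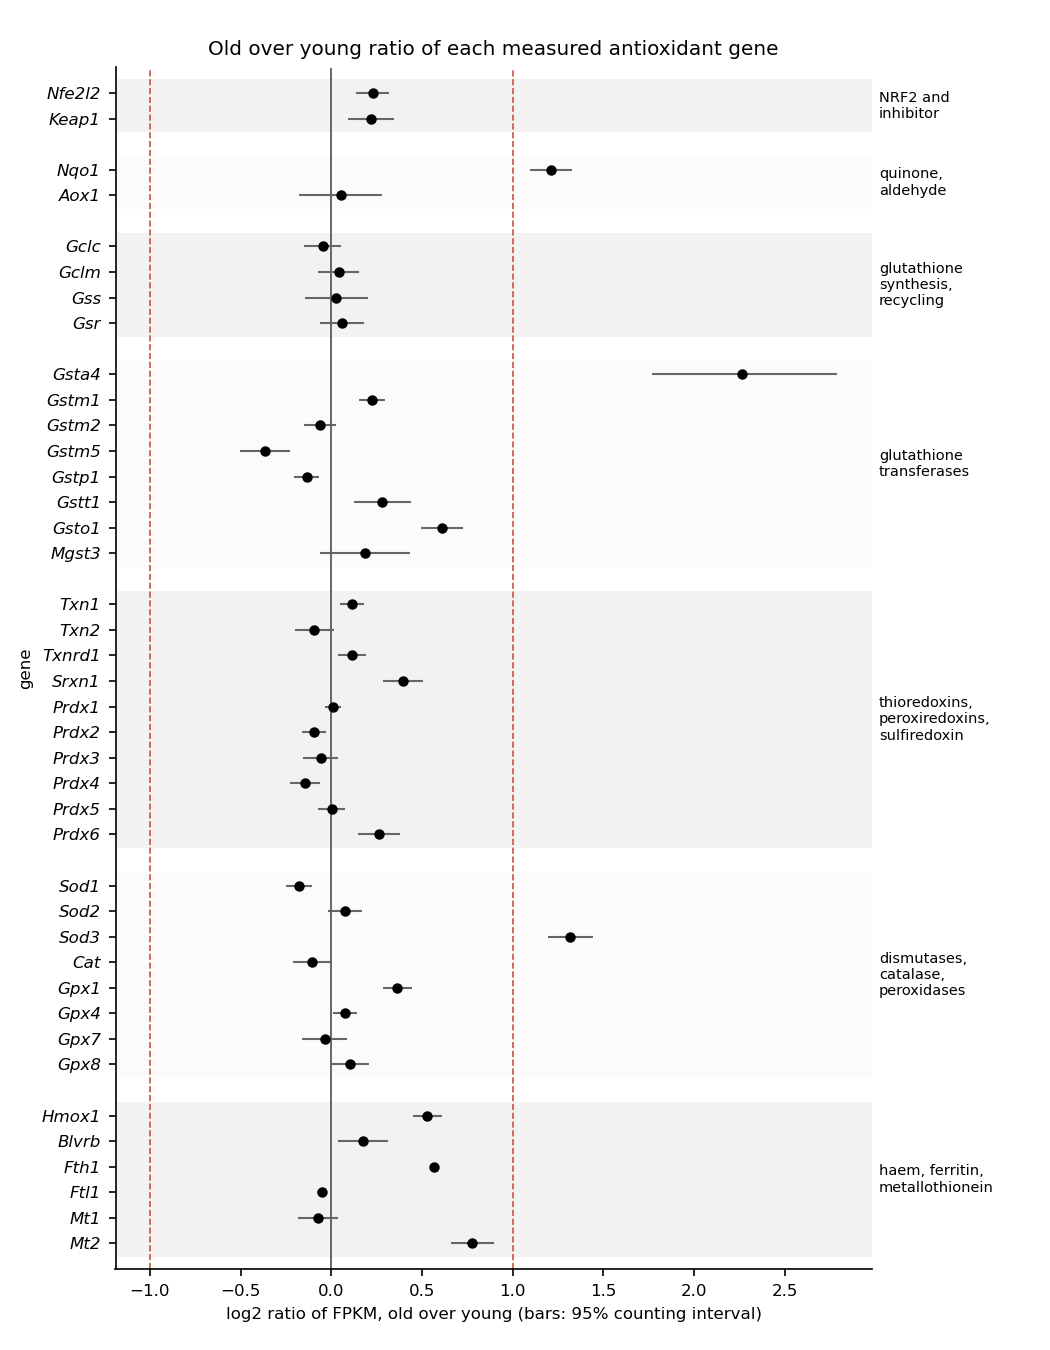
Log2 ratio of FPKM, old over young, of the 40 measured antioxidant genes grouped by role; points are ratios, bars 95% counting intervals and dashed lines 2-fold. Gsta4, Sod3 and Nqo1 lie wholly beyond 2-fold higher, and the 4 glutathione synthesis and recycling genes all cross 0.

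Thioredoxins, which reduce disulfides in other proteins, differed little. Txn1, the thioredoxin of the cytosol, was at 209 FPKM (young) and 226 FPKM (old), with a ratio of 1.08 (1.04 to 1.13). Txn2, its mitochondrial counterpart, was at 85.0 and 79.7 FPKM with an interval that included 1. Txnrd1, the selenium-containing reductase that recharges thioredoxin and a known NRF2 target, was at 67.6 and 73.1 FPKM (ratio 1.08, interval 1.03 to 1.14). Txnip, which binds and inhibits thioredoxin and is not among the 42 genes, was by contrast at 617 and 178 FPKM (ratio 0.288, interval 0.278 to 0.298), and exons of another gene cover 19.4% of its own. Summed, the 10 genes of the thioredoxin and peroxiredoxin group stood at 1522 FPKM (young) and 1541 FPKM (old).

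Peroxiredoxins are abundant peroxidases, most of which use thioredoxin, and apart from Prdx6 they were nearly level in both libraries. Prdx1, the most abundant of them, was at 462 FPKM (young) and 465 FPKM (old), with a ratio of 1.01 (0.975 to 1.04), and 20.8% of its words occur elsewhere too. Prdx2, at 208 and 195 FPKM, had a ratio of 0.936 (0.896 to 0.979), and part of its value is uncertain. Some of its exon bases are overlapped on the other strand by Junb, listed at 310 FPKM (young) and 196 FPKM (old). Mitochondrial Prdx3 was at 71.5 and 68.7 FPKM, and Prdx5, found in several compartments, was at 163.1 and 163.3 FPKM. Prdx4, the peroxiredoxin of the endoplasmic reticulum, was lower at 145 and 131 FPKM (ratio 0.904, interval 0.853 to 0.957). Prdx6, which works with glutathione, was higher at 53.2 and 63.9 FPKM (ratio 1.20, interval 1.11 to 1.3). As a sum the 6 peroxiredoxins stood at 1103 FPKM (young) and 1087 FPKM (old). Srxn1, the sulfiredoxin that repairs overoxidised peroxiredoxins and a known NRF2 target, was at 56.9 and 74.9 FPKM (ratio 1.32, interval 1.22 to 1.42), and was the single gene of this group to meet the finer rule.

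The 3 superoxide dismutases, which turn superoxide into hydrogen peroxide, did not move together. Sod3, the secreted enzyme that binds heparan sulfate in the matrix (ENSMUSG00000072941, chromosome 5, 52363791 to 52371418, plus strand), was at 11.5 FPKM (young) and 28.7 FPKM (old). On 702 and 1941 reads its ratio was 2.49 (2.29 to 2.72), rank 154 of 12561 genes. The cytosolic copper and zinc enzyme Sod1 was lower at 86.8 and 76.7 FPKM (ratio 0.883, interval 0.841 to 0.927). The mitochondrial manganese enzyme Sod2 was at 60.8 and 64.1 FPKM (ratio 1.05, interval 0.988 to 1.12). The level of Sod3 thus went from 0.132 to 0.374 times that of Sod1.

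Enzymes that remove hydrogen peroxide and lipid peroxides were nearly even, apart from Gpx1. Catalase, encoded by Cat and housed in peroxisomes, was at 53.5 FPKM (young) and 49.7 FPKM (old), with a ratio of 0.929 (0.864 to 0.999). Gpx1, the selenium-containing peroxidase of the cytosol, was at 157 and 203 FPKM (ratio 1.29, interval 1.22 to 1.36), just under the finer rule. Gpx4, the selenoprotein that reduces lipid peroxides and guards against ferroptosis, was at 305 and 321 FPKM (ratio 1.05, interval 1.01 to 1.10). Its value is uncertain, because 60.9% of its words are shared, chiefly with a pseudogene listed at 66.1 and 64.1 FPKM. The peroxidases of the endoplasmic reticulum were level, with Gpx7 at 77.2 and 75.2 FPKM and Gpx8 at 95.6 and 103 FPKM. Gpx3, the plasma glutathione peroxidase, had 0 reads in both libraries, and 3 reads, taken as the upper limit, would be 0.177 FPKM (young) and 0.159 FPKM (old).

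Genes of haem, iron storage and metal binding held the most abundant member. Fth1, the ferritin heavy chain that oxidises iron for storage (ENSMUSG00000024661, chromosome 19, 9980598 to 9985098, plus strand), was at 3378 FPKM (young) and 4995 FPKM (old). It ranked 10 of 55487 genes by mean FPKM. On 49716 and 81531 reads its ratio was 1.48 (1.46 to 1.5). Ftl1, the ferritin light chain, was at 1571 and 1515 FPKM (ratio 0.964, interval 0.946 to 0.983), and 69.5% of its words occur in 13 further genes that summed to 18.4 and 15.9 FPKM. Exons of other genes also cover 34.6% of those of Ftl1, so its value is uncertain. By the listed values, the ferritin heavy chain stood at 2.15 times the light chain in the young library and 3.30 times in the old, a ratio that carries the uncertainty of Ftl1.

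Fth1 alone held 0.304% of all reads in the young library (exact interval 0.302 to 0.307%) and 0.450% in the old (0.447 to 0.453%). The 42 genes together held 0.831% (0.826 to 0.835%) and 1.009% (1.004 to 1.013%), and without Fth1 the 41 others held 0.526% and 0.559%. Most of the difference in the summed share thus lay in the reads of a single gene.

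Hmox1, the inducible haem oxygenase that releases iron from haem and a known NRF2 target, was at 106 FPKM (young) and 153 FPKM (old). Its ratio was 1.44 (1.37 to 1.53) on 2031 and 3251 reads. Its log2 ratio of 0.53 lay inside the middle 90% of all measured genes, -0.56 to 0.62. Hmox1 averaged 130 FPKM, and the 2681 genes averaging 50 FPKM or more had a narrower middle 90%. That range ran from -0.41 to 0.49, and Hmox1 lay above it. Blvrb, a biliverdin reductase, acts downstream of haem breakdown and was at 54.5 and 61.6 FPKM (ratio 1.13, interval 1.03 to 1.24).

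The metallothioneins, small cysteine-rich proteins that bind zinc and copper and are switched on through metal response elements, separated from each other. Mt2 (ENSMUSG00000031762, chromosome 8, 94172664 to 94173568, plus strand) was at 120.3 FPKM (young) and 206 FPKM (old), with a ratio of 1.71 (1.58 to 1.86). Its neighbour Mt1 (ENSMUSG00000031765, chromosome 8, 94179082 to 94180327, plus strand) was at 106 and 101 FPKM (ratio 0.949, interval 0.879 to 1.02). Mt2 was thus 53.1% of their summed level in young cells and 67.1% in old cells. Of the exon bases of Mt2, 73.5% are overlapped by Gm45774 on the opposite strand, a gene listed at 0.115 and 0.166 FPKM. Reads from that strand cannot be told apart, as no source states that strand was used.

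The windows before the metallothionein starts are shown because the adjacent genes differed. The metal response element core, TGCACNC or TGCGCNC, was found 3 times before Mt2 and 1 time before Mt1, and in 21.4% of all promoter windows. It was present for 9 of the 36 genes found in the table, in 22.2% of their windows. Before Mt2, the antioxidant core TGACTCAGC lay 79 to 71 bases from the start. Capitals mark the metal response element core on either strand. The window follows the RefSeq start, so elements after that start are not counted. The Mt2 window ends at 94172617, before the listed gene start of 94172664. The Mt1 window ends at 94179088, past the listed start of 94179082. The counts of 3 and 1 therefore come from unlike stretches and do not compare the full promoters. A link to the levels was not tested.
Mt2, chr8:94172368-94172617, plus strand: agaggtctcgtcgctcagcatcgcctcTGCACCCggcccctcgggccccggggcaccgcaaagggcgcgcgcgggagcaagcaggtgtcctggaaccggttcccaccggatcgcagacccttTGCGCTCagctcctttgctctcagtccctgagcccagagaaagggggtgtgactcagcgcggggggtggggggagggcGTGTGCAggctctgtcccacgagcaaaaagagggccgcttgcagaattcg
Mt1, chr8:94178839-94179088, plus strand: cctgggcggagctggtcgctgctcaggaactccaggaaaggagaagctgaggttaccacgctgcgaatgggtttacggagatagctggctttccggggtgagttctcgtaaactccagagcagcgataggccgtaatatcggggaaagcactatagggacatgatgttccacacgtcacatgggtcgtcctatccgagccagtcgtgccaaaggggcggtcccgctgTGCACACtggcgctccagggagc

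**Figure D3:**
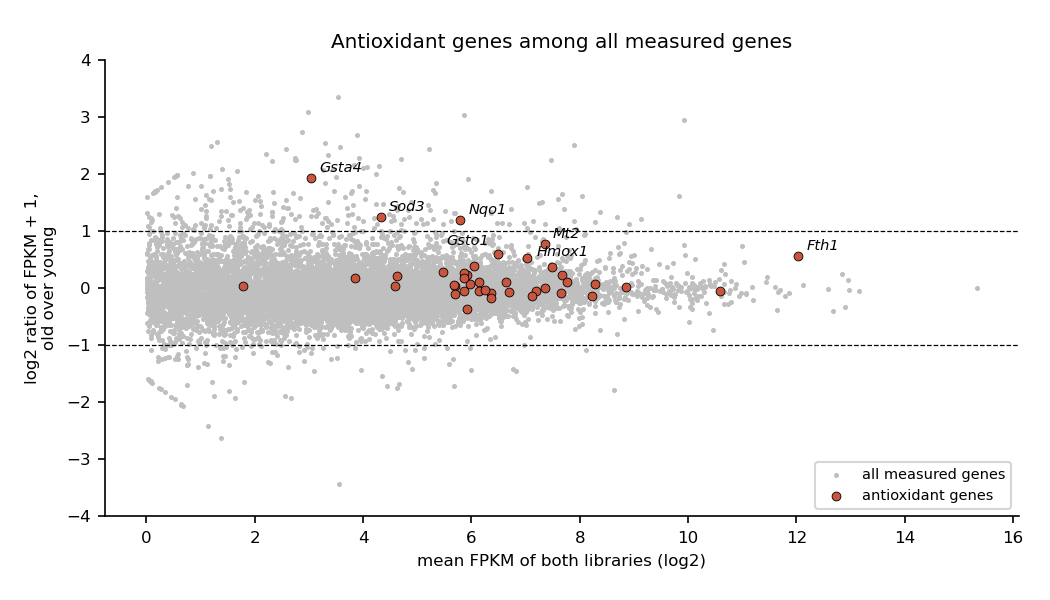
Log2 ratio of FPKM + 1, old over young, against mean FPKM (log2) for 12561 measured genes (grey) and 40 antioxidant genes (red); dashed lines are 2-fold. Gsta4, Sod3 and Nqo1 lie above the upper line, and Fth1 stands apart by its level.

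By role, the median log2 ratio was 0.35 for the 6 haem, ferritin and metallothionein genes, 0.20 for 8 glutathione transferases and 0.08 for 8 dismutases, catalase and peroxidases. It was 0.03 for the 4 glutathione synthesis and recycling genes and 0.01 for the 10 thioredoxin and peroxiredoxin genes. Against these, the median of all measured genes was -0.07. The 32 measured genes outside the finer rule ran from a ratio of 0.776 to 1.29, with a median log2 ratio of 0.03.

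Other genes of the pathway were taken from 7 lists of 86 genes, of which 65 passed the filter. These lists too were drawn up with earlier results of these data known. Over all lists, 2 genes were at least 2-fold higher, 1 was at least 2-fold lower, and the median log2 ratio was -0.06. Over all measured genes, 1.97% were 2-fold higher and 0.868% lower. The finer rule was met upward by 11 of the 65 (all measured genes, 9.77%) and downward by 9 (all measured genes, 13.0%), the latter a share close to that of all genes.

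Further NRF2 targets, 16 in number, had a median log2 ratio of 0.28, with 6 genes past the finer rule upward, 1 downward and none at 2-fold. Among all measured genes these shares were 9.77% upward and 13.0% downward for the finer rule, and 1.97% higher and 0.868% lower at 2-fold. Enzymes that make NADPH, the reductant that both glutathione and thioredoxin reductases use, were among the higher ones. G6pdx, glucose-6-phosphate dehydrogenase, was at 59.1 FPKM (young) and 104 FPKM (old), with a ratio of 1.75 (1.63 to 1.88). Pgd, the next oxidative step of the pentose phosphate pathway, was at 39.3 and 61.7 FPKM (ratio 1.57, interval 1.46 to 1.70). The other 4 higher genes were the malic enzyme Me1, the cystine transporter Slc7a11, the export pump Abcc1 and Ugdh. Their ratios were 1.34, 1.80, 1.51 and 1.41. Slc7a11 was low, at 0.801 FPKM (young) and 1.44 FPKM (old) on 47 and 94 reads (interval 1.26 to 2.62). Of the words of Me1, 29.9% also occur in other genes. The downward one, carbonyl reductase Cbr1, was at 4.38 and 1.83 FPKM (ratio 0.419, interval 0.279 to 0.619).

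The 10 regulators around NRF2 had a median log2 ratio of -0.05, with none at 2-fold (all measured genes, 1.97% higher and 0.868% lower). Maff, a small MAF partner, was at 1.85 and 3.81 FPKM, while its relative Mafk was at 8.69 and 6.54 FPKM. Bach1, the repressor that competes with NRF2 for its sites, was at 7.5 and 9.95 FPKM (ratio 1.33, interval 1.16 to 1.52).

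Of 19 further glutathione genes 8 passed the filter, with 1 at 2-fold higher (all measured genes, 1.97%). This was Mgst2, a microsomal transferase, at 1.70 and 6.81 FPKM on 20 and 89 reads (ratio 4.01, interval 2.45 to 6.88); its log2 ratio was 1.53, and 0.82 at a pseudocount of 5. Chac1, which degrades glutathione, was lower at 10.2 and 7.12 FPKM (ratio 0.694, interval 0.577 to 0.834). Gstt3 was at 5.20 and 4.34 FPKM with an interval that included 1.

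Further thioredoxin, glutaredoxin and methionine sulfoxide genes, 15 in all, had a median of -0.13. Txnip was 2-fold lower (all measured genes, 0.868%) and none was 2-fold higher (all measured genes, 1.97%). After Txnip the largest differences were in Sesn2, a stress-induced sestrin, at 43.6 and 28.1 FPKM, and in Txnrd3, at 3.86 and 2.71 FPKM. The list of other peroxidases and a copper chaperone also held Aifm2. Its 3 measured genes were all slightly lower, while 40.4% of all measured genes lay above 0. Log2 ratios were -0.26 for Aifm2, -0.24 for Pxdn and -0.17 for Ccs, the chaperone that loads copper into SOD1.

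Iron, haem and metal genes outside the 42 had a median of -0.15 over 9 measured genes, with none at 2-fold. Among all measured genes, 1.97% were 2-fold higher and 0.868% lower. Tfrc, the transferrin receptor for iron uptake, was at 10.2 FPKM (young) and 18.7 FPKM (old), with a ratio of 1.83 (1.59 to 2.11). Thus Tfrc and Fth1 were both higher in the old library. Slc30a1, a zinc exporter, was lower at 6.10 and 3.97 FPKM (ratio 0.651), and Blvra was lower at 26.2 and 20.04 FPKM (ratio 0.766).

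Among 8 enzymes that produce oxidants 4 passed the filter. Xdh, xanthine dehydrogenase, whose oxidase form produces superoxide and hydrogen peroxide, was at 25.3 FPKM (young) and 97.8 FPKM (old). On 707 and 3026 reads its ratio was 3.86 (3.55 to 4.19), which placed it 42nd by log2 ratio among 12561 genes, beside Gsta4. Aoc3, a copper amine oxidase, was lower at 5.01 and 2.62 FPKM, and the NADPH oxidase Nox4 was low at 2.95 and 2.46 FPKM with an interval that included 1.

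**Figure D4:**
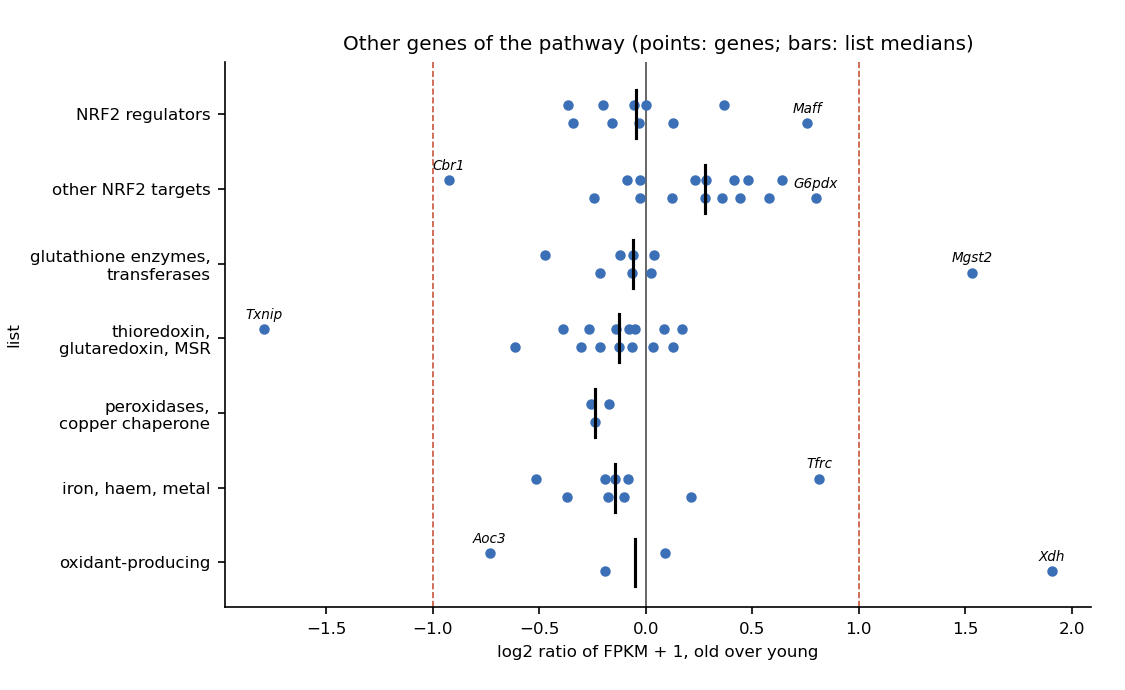
Log2 ratio of FPKM + 1, old over young, of 65 measured genes in 7 lists of the wider pathway; points are genes, black bars list medians and dashed lines 2-fold. Xdh and Mgst2 lie beyond 2-fold higher and Txnip beyond 2-fold lower, and the other NRF2 targets have the highest list median at 0.28.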

How the data were processed

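The authors deposited 1 FPKM value per gene and library for 55487 Ensembl genes. The submitters' processing notes name fastp, STAR, HTSeq and edgeR and the build mm10; their roles and versions, the annotation, filters and strand setting were not given in the sources used here. Each library was grouped by its age label. Symbols, positions and lengths came from GENCODE M21 on GRCm38 (55141 identifiers matched), and promoters from RefSeq (GRCm38.p6). Reads were recovered from the FPKM steps, with the mean transcript length rounded to whole bases: 97.6% of values above 0 were whole within 0.01 reads in each library, and so were those of all 42 genes. The depth is 16333396 and 18114336 reads.

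The main measure was log2(FPKM + 1), old minus young, for genes of 1 FPKM or more on average; 2-fold on this scale counted as higher or lower. Ratio intervals are exact Clopper-Pearson. No test fits 1 library per group. Shared sequence was measured with words of 50 bases every 25 bases. The calculation was tested on simulated data. Python 3.11.15, pandas 2.3.3 and SciPy 1.17.1 were used. The genes and lists were chosen with earlier results of these data known. All 42 genes could be named, and from each wider list the 3 with the largest absolute log2 ratios, plus those past the finer rule among other NRF2 targets, which were named after their values were seen.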

Additional observations from a re-analysis of the deposited data

How the results depend on the processing

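The 3 genes at least 2-fold higher were 3 under 6 of 7 alternatives and 2 with the filter raised to 10 FPKM, which leaves out Gsta4; none was 2-fold lower under any of the 7. The median log2 ratio of the measured antioxidant genes ran from 0.07 to 0.14. Of the 40 genes, 34 kept their sign under pseudocounts of 0.1 and 5 and both scalings. The 6 others had log2 ratios of at most 0.061 in size before any change of setting, and Ftl1 went from -0.05 to 0.013 when log2 ratios were centred on the median of all genes, a shift of 0.07. Under that centring the NRF2 and KEAP1 median was 0.28 and the glutathione synthesis median 0.10; at a pseudocount of 5 the former was 0.20. The thioredoxin and peroxiredoxin median was -0.0012 after rescaling. In the wider lists, a pseudocount of 5 or the filter of 10 FPKM left 1 gene 2-fold higher, with 0 among glutathione enzymes. At a pseudocount of 0.1 there were 2 lower genes, 1 of them among other NRF2 targets (Cbr1), and 1 higher among NRF2 regulators (Maff). Rescaling left out the 10 most abundant genes of either library, 11 in all. It gave 2 higher glutathione enzymes, as Gstm7 (4 and 23 reads) then passed both the filter of 1 FPKM and the 2-fold threshold. Over all measured genes, where 248 were 2-fold higher and 109 lower, a pseudocount of 0.1 gave 408 and 236, a pseudocount of 5 gave 101 and 20, and the filter of 10 FPKM gave 106 and 27. The cause of the differences between the 2 libraries was not tested. No paired analysis was possible because each group has 1 library. Depth limits Mgst1, Gpx3 and Gsta4 most.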
